A study of Mus musculus with 6 samples.

Results

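The 10 genes described here build, coat and break down lipid droplets, the cell's stores of triglyceride: Plin2, Plin3, Plin4 and Plin5, Mogat2, Dgat1 and Dgat2, and Pnpla2, Hilpda and G0s2. They were chosen by symbol, and 10 of 10 are among the 13696 protein-coding genes in the deposited tables, with 17 transcripts between them. Whole-kidney RNA had been sequenced from 3 wild-type (WT) samples and 3 samples carrying the label fat-1 knockin, every one at 24 months of age. The fat-1 gene comes from a nematode and encodes a desaturase that turns omega-6 fatty acids into omega-3 fatty acids, which mammals cannot do. The comparison of fat-1 with WT asks what the inserted gene changes in the old kidney. The labels used here give no strain, sex, diet or feeding state, nor the promoter or site of the insertion, and do not say whether each kidney came from a separate mouse, so the spread behind each p-value is that of these samples and may be technical. The nematode transcript was not analysed here, so genotype labels were not checked against it.

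Cells store surplus fatty acids as triglyceride inside droplets that have a phospholipid surface and a protein coat. Monoacylglycerol acyltransferases (Mogat2) make diacylglycerol, and diacylglycerol acyltransferases (Dgat1, Dgat2) add the last acyl chain. Perilipins (Plin2 to Plin5) coat the droplet and govern access of lipases to it, and the lipase encoded by Pnpla2 takes the first acyl chain off triglyceride. The small proteins encoded by G0s2 and Hilpda bind and inhibit that lipase. Proximal tubule cells of the kidney burn fatty acids as a main fuel, and several of these genes, Plin2, Plin5 and G0s2 among them, are known targets of the fatty acid receptor PPAR alpha.

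Levels are FPKM, fragments scaled to transcript length and to the mapped fragments of the library, summed over the listed transcripts of a gene, and can be set side by side between genes. Summed FPKM ranged from 387488 to 431081 per library. Read numbers are unknown, so no counting error can be given. Defining markers of kidney tubules were present in all 6 libraries, with the proximal tubule phosphate transporter Slc34a1 at 854 to 1359 FPKM and Umod of the thick ascending limb at 425 to 1034 FPKM. Other tubule markers varied in level, with Lrp2 of the proximal tubule at 107 to 169.7 FPKM in WT and 113 to 144 FPKM in fat-1. The proximal tubule transporter Slc22a7 had a lower level than Lrp2 in both groups, at 7.32 to 52.8 FPKM in WT and 3.77 to 13.3 FPKM in fat-1, and these ranges overlap. WT replicate 1 stood apart in macrophage markers: 11 such genes summed to 906 FPKM there, against 103 to 215 FPKM in the other 5 libraries. It also differed over all listed genes. Its Pearson correlation with the other 5 libraries, on log2(FPKM + 1), was 0.942 to 0.95, against 0.949 to 0.976 among those 5. Endothelial markers moved with the genotype label. Of these, 12 of 12 lay higher in every fat-1 library than in every WT library, against 8.33% of all tested genes, and their sum was 115 to 139.9 FPKM in WT and 217 to 295 FPKM in fat-1. Podocyte markers did so too for 4 of 5 genes, with sums of 58.1 to 68.5 FPKM in WT and 87.6 to 102 FPKM in fat-1. Markers of the distal nephron moved the other way for 3 of 9 genes, which were lower in every fat-1 library (6.86% of all tested genes were), while 1 of 9, Aqp3, was higher in every fat-1 library. The 3 were Calb1 (95.5 to 152 FPKM in WT and 25.3 to 49.2 FPKM in fat-1), Slc26a4 (27.1 to 28.0 and 13.0 to 19.2 FPKM) and Atp6v1g3 (33.3 to 40.2 and 19.3 to 23.3 FPKM), and the summed level of the 9 overlapped, at 1279.6 to 1476 FPKM in WT and 894 to 1634 FPKM in fat-1. Of 12 proximal tubule markers, 2 were higher in every fat-1 library and 0 were lower in every one. The 2 were Slc22a8 (112 to 123 FPKM in WT and 181 to 269.8 FPKM in fat-1) and Slc13a3 (118 to 216 and 273 to 315 FPKM). At an unadjusted p under 0.05 in limma, 2 of the 12 were higher and 2 lower, where 9.97% of all tested genes passed in either direction. The 2 lower were Slc7a13 (281 to 521 FPKM in WT and 145 to 282 FPKM in fat-1) and Gatm (164 to 287 and 103 to 171 FPKM), and both overlapped. The log2 difference, fat-1 minus WT, was negative for 8 of the 12, with a median of -0.23. The part of endothelial, podocyte, distal nephron or proximal tubule RNA in the differences below was not tested. In whole tissue more cells of a type cannot be told apart from more RNA per cell.

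Promoter windows were available for 7 of the 10 genes, in 9 windows of 300 bases running from 250 bases before to 50 bases after a RefSeq gene start; Mogat2, Dgat1 and Dgat2 had no entry. The windows of Plin2, G0s2 and Plin5 are shown because these 3 were, with Mogat2 and Dgat2, the tested members whose fat-1 and WT values did not overlap. The gene start is base 251 of each window. Each is given 5′ to 3′ on the strand of the gene (minus in all 3), from RefSeq on build GRCm38.p6: Plin2 from chr4:86670010-86670309, G0s2 from chr1:193273139-193273438, and Plin5 from chr17:56117499-56117798 for an upstream start and chr17:56117249-56117548 for a downstream start. Capitals mark matches to the motifs described after them.

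Plin2: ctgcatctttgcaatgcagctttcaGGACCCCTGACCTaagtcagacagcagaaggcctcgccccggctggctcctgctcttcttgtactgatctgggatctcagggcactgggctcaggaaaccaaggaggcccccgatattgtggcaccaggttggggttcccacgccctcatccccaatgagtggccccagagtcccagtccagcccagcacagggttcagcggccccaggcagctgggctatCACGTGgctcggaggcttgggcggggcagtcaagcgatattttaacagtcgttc

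G0s2: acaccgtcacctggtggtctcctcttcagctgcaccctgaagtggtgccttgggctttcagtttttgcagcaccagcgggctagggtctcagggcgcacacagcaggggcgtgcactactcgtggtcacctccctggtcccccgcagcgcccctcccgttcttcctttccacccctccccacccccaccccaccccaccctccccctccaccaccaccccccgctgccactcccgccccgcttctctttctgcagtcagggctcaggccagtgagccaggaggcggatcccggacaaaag

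Plin5, upstream start: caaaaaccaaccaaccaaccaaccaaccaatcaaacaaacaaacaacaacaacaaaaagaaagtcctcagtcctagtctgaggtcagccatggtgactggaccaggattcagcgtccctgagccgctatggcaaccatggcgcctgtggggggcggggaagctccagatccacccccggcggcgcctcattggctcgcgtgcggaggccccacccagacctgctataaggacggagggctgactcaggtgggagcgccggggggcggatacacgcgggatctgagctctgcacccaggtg

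Plin5, downstream start: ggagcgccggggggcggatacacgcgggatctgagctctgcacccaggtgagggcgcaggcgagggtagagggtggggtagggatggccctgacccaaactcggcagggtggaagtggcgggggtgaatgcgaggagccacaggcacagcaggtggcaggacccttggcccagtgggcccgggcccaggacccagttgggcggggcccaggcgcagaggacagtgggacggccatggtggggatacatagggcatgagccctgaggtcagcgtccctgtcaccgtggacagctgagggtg

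Both strands were searched for a pair of AGGTCA half-sites in the same direction, 1 base apart, the arrangement PPAR alpha binds with its partner RXR, with up to 2 mismatches over the 12 bases. Of the 7 genes, with 9 windows, only Plin2 held a match, at bases 26 to 38 of its 1 window on the reverse strand, with 2 mismatches. Such a match was present in 3.86% of all 32851 windows of the same kind. The core ACGTG, found in sites for hypoxia-inducible factors and within some E-boxes, was present in 2 of the 9 windows, 1 each for Plin2 and Hilpda. This is near the share over all windows, 19.6%. In Plin2 the core occurred on both strands over bases 247 to 252, where the overlapping matches form CACGTG across the gene start. In Hilpda it lay at bases 208 to 212 of the window whose gene start is that of the listed transcript, Hilpda-201. These are matches of letters in short windows and say nothing of binding. The other windows held neither motif.

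**Figure D1:**
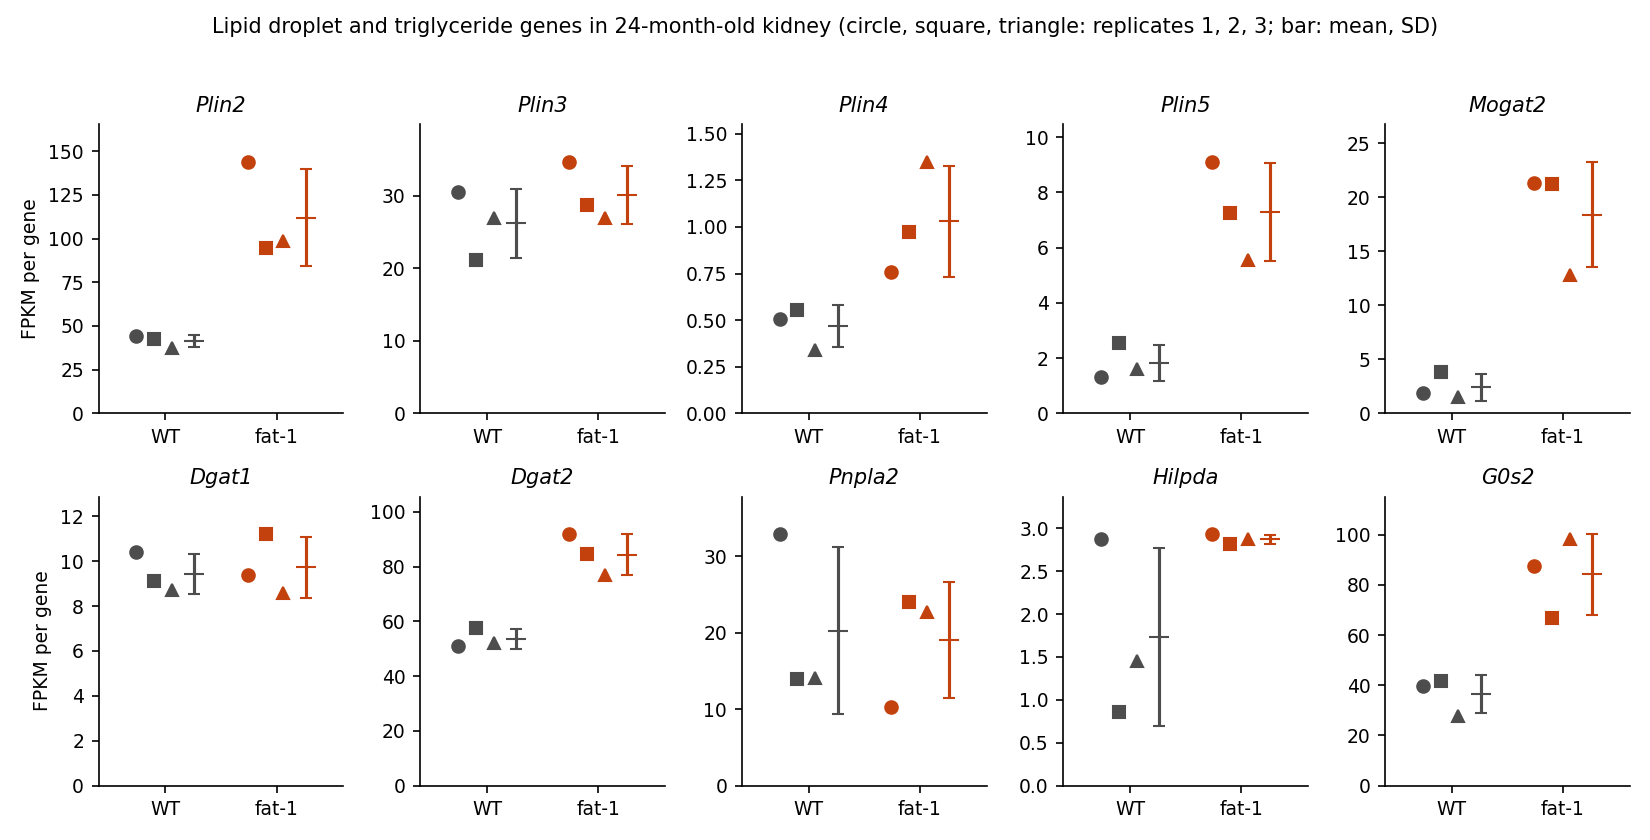
FPKM per gene (y axis, from 0, a separate scale in each panel) for the 10 members in 3 WT (grey) and 3 fat-1 (orange) kidney libraries; circles, squares and triangles are replicates 1, 2 and 3, and bars give the mean and SD. Fat-1 values of Mogat2, Plin5, Plin4, Plin2, G0s2 and Dgat2 all sit above the WT values, while those of Plin3, Dgat1, Pnpla2 and Hilpda overlap with them.

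Mogat2 rose in fat-1 kidneys and was the 1 member that passed the test across all genes. Of the other tested members, Plin5, Plin2, G0s2 and Dgat2 were higher in every fat-1 library than in every WT library without passing, and Dgat1, Plin3, Pnpla2 and Hilpda overlapped between the groups. The test was limma on log2(FPKM + 1), with p-values adjusted by the Benjamini-Hochberg method over 11698 genes that reached 1 FPKM in at least 3 libraries. Differences below are given on that scale with WT subtracted from fat-1, and the scale understates changes of low genes. Of the 10 members 9 were tested, and Plin4 was too low. Called higher was 1 of 9, where 0.120% of all tested genes were, and called lower was 0 of 9, where 0.0598% were. At an unadjusted p under 0.05 in limma there were 5 of 9 members, against 9.97% of all tested genes. Every fat-1 library exceeded every WT library for 5 of 9 tested members, against 8.33% of all tested genes, and lay below for 0 of 9, against 6.86%. The median difference was 0.65 over the 9 members and 0.0059 over all tested genes. The members were chosen with earlier results of these data known, so these shares describe the list and are no evidence of their own.

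**Figure D2:**
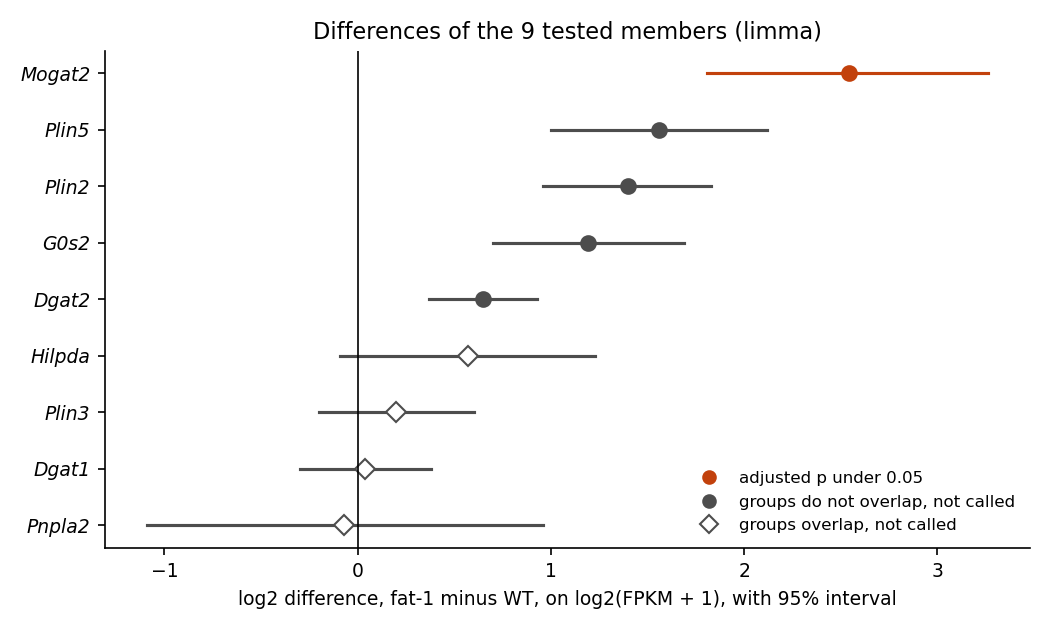
Log2 difference between fat-1 and WT, from FPKM + 1 (x axis) for the 9 tested members, with 95% intervals from limma. Mogat2 (orange, 2.54) passed an adjusted p of 0.05; filled grey points mark 4 members whose groups did not overlap and open diamonds the 4 whose groups did.

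Among the acyltransferases, Mogat2 (chromosome 7, 99219084 to 99238619, mm10, minus strand) measured 1.87, 3.83 and 1.51 FPKM in WT replicates 1, 2 and 3, and 21.3, 21.2 and 12.8 FPKM in fat-1 replicates 1, 2 and 3. The lowest fat-1 library was 8.93 FPKM above the highest WT library. The means were 2.40 ± 1.25 and 18.4 ± 4.89 FPKM (SD, n = 3 each), a 7.67-fold ratio, and the log2 difference was 2.54 ± 0.31 (SE), with a 95% interval from 1.81 to 3.26 and an adjusted p in limma of 0.0496. The call was lost whenever 1 library was left out (adjusted p in limma from 0.0626 to 0.198), while the difference stayed between 2.35 and 2.82. In WT kidneys Mogat2 was a low gene, with 15.3% of tested genes below it. Annotation places 55 exon bases of Gm45012 over Mogat2 on the opposite strand, and no source used here states whether the libraries keep strand.

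Dgat2, the acyltransferase that lies 36.4 kilobases from Mogat2 on the same strand (99153658 to 99182719), was far more abundant. It measured 50.9, 57.7 and 52.0 FPKM in WT replicates 1 to 3 and 91.8, 84.5 and 76.9 FPKM in fat-1 replicates 1 to 3. The groups were 19.2 FPKM apart at their nearest values, and the difference of 0.65 ± 0.12 (SE; 95% interval 0.37 to 0.93) did not pass (adjusted p in limma = 0.107). In WT kidneys this made Dgat2 the highest of the 10 members, at 53.5 ± 3.65 FPKM (SD, n = 3), above 89.5% of tested genes. Almost all of its signal came from the transcript Dgat2-201, at 98.1% or more of the gene in each library.

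The ratio of Mogat2 to Dgat2 within a library cancels any scaling between libraries. It was 0.0367, 0.0664 and 0.0290 in WT replicates 1 to 3 and 0.232, 0.251 and 0.166 in fat-1 replicates 1 to 3. So even after dividing by its neighbour, Mogat2 was higher in each fat-1 library than in any WT library. Against Mogat1, a paralog with the same activity, the ratio of Mogat2 was 0.0158 to 0.0433 in WT and 0.0948 to 0.142 in fat-1, again without overlap; this ratio was added after the values were seen. Mogat1 therefore stayed the more abundant of the pair in all 6 libraries.

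Dgat1, which catalyses the same step as Dgat2 but is an unrelated protein (chromosome 15, 76502015 to 76511951), had nearly the same level in both groups. It measured 10.4, 9.13 and 8.70 FPKM in WT and 9.39, 11.2 and 8.58 FPKM in fat-1, in the order of the replicates. The difference was 0.04 ± 0.14 (SE), and its 95% interval of -0.30 to 0.38 leaves room for modest changes in either direction (adjusted p in limma = 0.98). The sign turned without WT replicate 3 (-0.01) or fat-1 replicate 2 (-0.06). The ratio of Dgat1 to Dgat2 was 0.158 to 0.205 in WT and 0.102 to 0.133 in fat-1, lower in each fat-1 library.

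Among the droplet coat genes, Plin2, the perilipin found on droplets of most tissues (chromosome 4, 86656565 to 86670060), was the most abundant. It measured 44.2, 42.5 and 37.6 FPKM in WT and 144, 94.7 and 98.4 FPKM in fat-1 replicates 1, 2 and 3. The nearest values of the groups were 50.5 FPKM apart, and fat-1 replicate 1 stood above the other 2 fat-1 libraries. The difference of 1.40 ± 0.18 (SE; 95% interval 0.96 to 1.83) had an adjusted p in limma of 0.0570, just outside the threshold. The order of the members changed with it, since Plin2 was the second highest member in WT, after Dgat2, and the highest in fat-1.

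Plin5, a perilipin of tissues that oxidise fat, which tethers droplets to mitochondria (chromosome 17, 56111601 to 56117596), was low in WT. Its values were 1.31, 2.54 and 1.62 FPKM there and 9.11, 7.26 and 5.55 FPKM in fat-1 replicates 1 to 3. The means of 1.82 ± 0.641 and 7.30 ± 1.78 FPKM (SD, n = 3) give a 4.0-fold ratio, larger than the 2.71-fold ratio of Plin2. Its difference of 1.56 ± 0.24 (SE; 95% interval 1.00 to 2.12) did not pass (adjusted p in limma = 0.0728). Relative to Plin2 the level of Plin5 was 0.0296 to 0.0599 in WT and 0.0564 to 0.0767 in fat-1, and these ranges overlap; this ratio too was added after the values were seen.

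Plin4, the perilipin best known from fat and muscle, lies 1.8 kilobases from Plin5 on the same strand (56100591 to 56109803). It was barely present, at 0.507, 0.553 and 0.339 FPKM in WT and 0.760, 0.975 and 1.35 FPKM in fat-1. The groups were 0.208 FPKM apart at their nearest values, and with no filter on low values its difference was 0.46 ± 0.18 (SE; adjusted p in limma = 0.506). An exon of Hdgfl2 on the opposite strand shares 17 bases with it.

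Plin3, a perilipin that also sits in the cytosol (chromosome 17, 56278962 to 56290511), was measured at 30.5, 21.1 and 27.0 FPKM in WT and 34.7, 28.7 and 27.0 FPKM in fat-1. The groups overlapped, with a difference of 0.20 ± 0.17 (SE; 95% interval -0.20 to 0.60; adjusted p in limma = 0.825). The ratio of Plin2 to Plin3 within a library was 1.45, 2.01 and 1.39 in WT and 4.16, 3.29 and 3.64 in fat-1. This ratio did not overlap between the groups, so Plin2 exceeded Plin3 by more in each fat-1 library than in any WT library.

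The lipase gene Pnpla2 (chromosome 7, 141455198 to 141460743, plus strand) varied more within the groups than between them. It measured 32.9, 14.0 and 14.1 FPKM in WT and 10.3, 24.0 and 22.7 FPKM in fat-1, so that the extremes of both groups were replicate 1. The difference was -0.07 ± 0.43 (SE), and the 95% interval of -1.09 to 0.96 covers changes of a size seen in other members. Without WT replicate 1 it was 0.32, and without fat-1 replicate 1 it was 0.30; the adjusted p in limma was 0.991 with all libraries. WT replicate 1 was also the library with high macrophage markers; the part of macrophage RNA in its Pnpla2 value was not tested.

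G0s2, an inhibitor of that lipase (chromosome 1, 193272161 to 193273217), was at 39.6, 41.9 and 27.7 FPKM in WT and 87.4, 66.9 and 98.4 FPKM in fat-1. The highest WT value and the lowest fat-1 value were 25.0 FPKM apart. The difference was 1.19 ± 0.21 (SE; 95% interval 0.70 to 1.69; adjusted p in limma = 0.103). Its highest fat-1 library was replicate 3, unlike Plin2, Plin5 and Dgat2, which were highest in replicate 1. The ratio of G0s2 to Pnpla2 was 1.2, 2.99 and 1.97 in WT and 8.52, 2.79 and 4.33 in fat-1, and fat-1 replicate 2 lay within the WT range.

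Hilpda, another inhibitor of the lipase and a gene induced by low oxygen (chromosome 6, 29272626 to 29275446), was low throughout. It measured 2.88, 0.859 and 1.45 FPKM in WT and 2.93, 2.82 and 2.88 FPKM in fat-1. WT replicate 1 reached the level of the fat-1 libraries, and the other WT libraries lay below. The difference was 0.57 ± 0.28 (SE; 95% interval -0.09 to 1.23; adjusted p in limma = 0.591), and it was 0.86 without WT replicate 1 (adjusted p in limma = 0.134). The ratio of Hilpda to Pnpla2 was 0.0612 to 0.103 in WT and 0.118 to 0.285 in fat-1, where the ranges do not overlap; the high ratio of 0.285 belonged to fat-1 replicate 1, the library with the lowest Pnpla2.

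The order of levels differed little between the groups. In WT it ran from Dgat2 through Plin2, G0s2, Plin3, Pnpla2, Dgat1, Mogat2, Plin5 and Hilpda to Plin4. Neighbours whose libraries overlapped in WT, and so were not separated beyond their spread, were Plin2 and G0s2, G0s2 and Plin3, Plin3 and Pnpla2, Mogat2 and Plin5, and Plin5 and Hilpda. In fat-1 the order differed in that Plin2 passed Dgat2 and Mogat2 passed Dgat1, each without overlap between the libraries of the pair. Overlapping neighbours in fat-1 were Dgat2 and G0s2, Pnpla2 and Mogat2, and Dgat1 and Plin5.

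Transcripts were listed for each member as 1 (5 genes), 2 (3 genes) or 3 (2 genes) entries, and the division of reads between overlapping transcripts is an estimate. Plin2-201, the full-length form of 1888 bases, held 91.9% to 99.0% of Plin2 in each library. The short entries Plin2-205 (683 bases) and Plin2-207 (730 bases) are annotated without their 3′ ends and summed to 9.60 FPKM in fat-1 replicate 1 and 8.0 FPKM in fat-1 replicate 3. In the other 4 libraries the same sum was 0.487 to 0.987 FPKM, with fat-1 replicate 2 just above WT. As a share of Plin2, fat-1 replicate 2 (1.04%) was below all WT libraries (1.1% to 1.87%), although its Plin2-201 level of 93.7 FPKM was close to the 90.4 FPKM of fat-1 replicate 3.

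The 2 transcripts of Plin5 begin at different starts, matching the 2 promoter windows shown above. The gene start in the downstream window is the annotated start of Plin5-202, and the gene start in the upstream window lies 48 bases downstream of the start of Plin5-201. Plin5-201 measured 0.498, 0.558 and 1.62 FPKM in WT and 3.00, 2.02 and 3.29 FPKM in fat-1. Plin5-202 measured 0.813, 1.98 and 0 FPKM in WT and 6.10, 5.24 and 2.26 FPKM in fat-1. Each was higher in every fat-1 library than in any WT library. The shares overlapped between the groups: Plin5-202 made up 0% to 78.1% of the gene in WT and 40.7% to 72.1% in fat-1.

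Pnpla2-203 carried 76.6% of Pnpla2 in WT replicate 1 and 91.6% to 98.3% in the other libraries. Pnpla2-202 was listed at 6.39 FPKM in WT replicate 1 and at 0 in the other 5, and so made up 6.39 of the 32.9 FPKM of the gene in that library; Pnpla2-203 alone was still highest there, at 25.2 FPKM. The near-identical entries Plin4-201 and Plin4-202 (5755 and 5756 bases) traded places, with Plin4-202 at 100% of the gene in WT replicate 1 and at 0% in fat-1 replicate 3, so that their separate values carry little information.

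**Figure D3:**
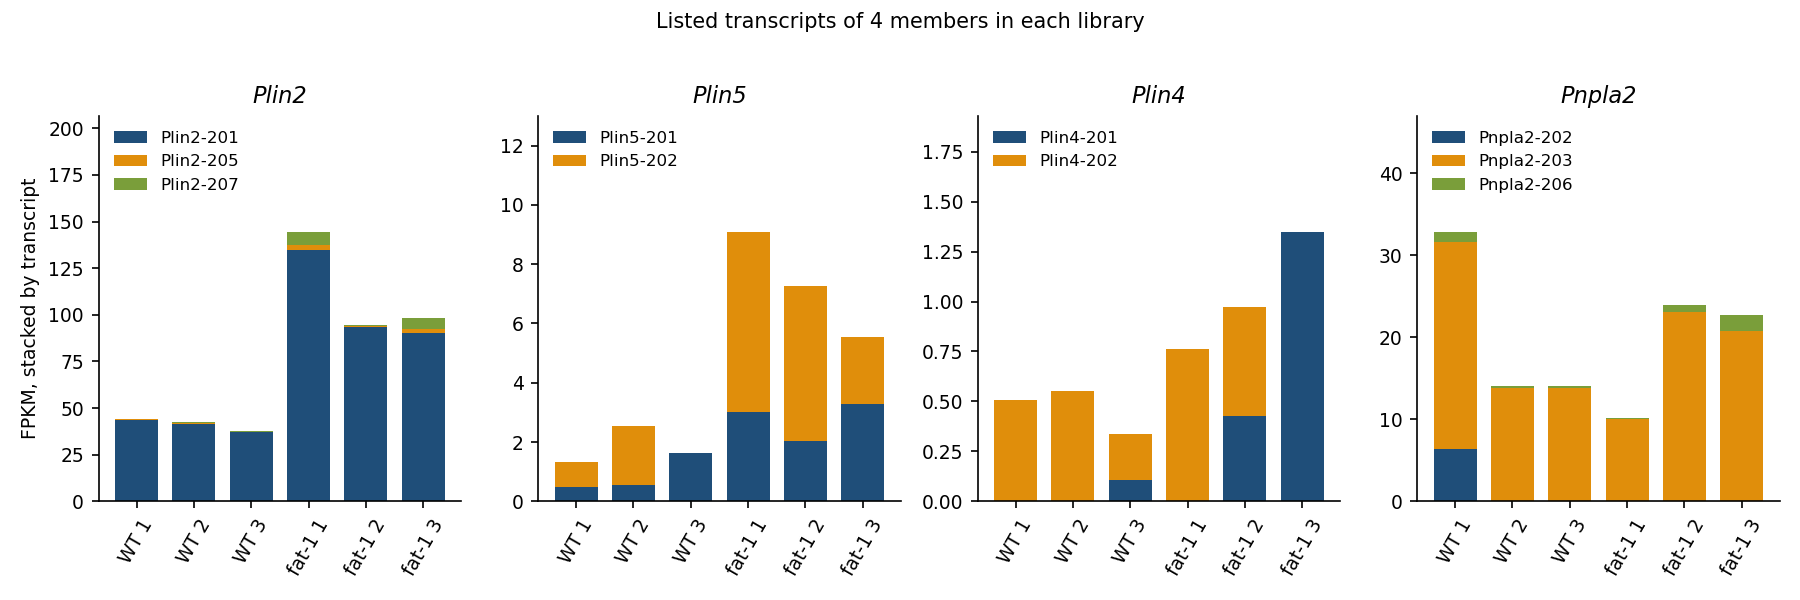
FPKM of each listed transcript (y axis, stacked from 0) of Plin2, Plin5, Plin4 and Pnpla2 in each of the 6 libraries (x axis). Both Plin5 transcripts are higher in fat-1, Plin2-205 and Plin2-207 appear mainly in fat-1 replicates 1 and 3, and Pnpla2-202 appears in WT replicate 1 alone.

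Other genes of the pathway were read from 3 lists written with earlier results known, and in limma 0 of 20, 0 of 14 and 0 of 23 tested genes passed, where 0.120% of all tested genes passed as higher and 0.0598% as lower. In glycerolipid synthesis, 6 of 20 tested genes had an unadjusted p under 0.05 in limma (9.97% of all tested genes did). Of the 6, 5 were higher and 1 lower in fat-1, and the median difference over the 20 was 0.20. The lower gene was Gpat4, at 13.8 to 16.0 FPKM in WT and 10.7 to 12.3 FPKM in fat-1 (difference -0.31, adjusted p in limma = 0.442). Gpd1, which makes glycerol 3-phosphate for the glyceride backbone, measured 77.2, 109 and 90.8 FPKM in WT and 201, 177 and 146 FPKM in fat-1 (difference 0.91, adjusted p in limma = 0.123). Acsl1, which activates long-chain fatty acids to acyl-CoA, had values of 63.5, 50.2 and 38.5 FPKM in WT and 102, 111 and 89.4 FPKM in fat-1 (difference 1.00, adjusted p in limma = 0.123). For both, the groups did not overlap.

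Mogat1 measured 43.2, 96.2 and 95.5 FPKM in WT and 174, 149 and 135 FPKM in fat-1, with WT replicate 1 lowest (difference 1.03, adjusted p in limma = 0.321). It is the paralog of Mogat2 outside the 10 genes, and its WT mean of 78.3 ± 30.4 FPKM (SD, n = 3) compares with 2.40 ± 1.25 FPKM for Mogat2. Acsl4, which favours arachidonate, and Lpin1, the phosphatase that makes diacylglycerol, differed by 0.52 and 0.40 (adjusted p in limma 0.277 and 0.413).

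In the list of lipolysis genes, 4 of 14 tested had an unadjusted p under 0.05, against the same 9.97% of all tested genes, 3 higher and 1 lower, with a median of 0.15. Lipe, hormone-sensitive lipase, which acts on diacylglycerol after the lipase of Pnpla2, measured 5.45, 6.75 and 5.70 FPKM in WT and 14.0, 13.4 and 11.5 FPKM in fat-1. These ranges are well separated, and the difference of 1.00 ± 0.14 (SE) had an adjusted p in limma of 0.0628. Ces1d, a carboxylesterase that hydrolyses triglyceride, differed by 1.01 (adjusted p in limma = 0.0939); it belongs to a cluster of close paralogs, so its value is uncertain. Ddhd2, a lipase acting on triglyceride and phospholipid, differed by 0.47 and Aadac, an ester hydrolase, by -0.50 (adjusted p in limma 0.243 and 0.162).

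The coactivator and the last enzyme of lipolysis showed no such pattern. Abhd5, which activates the Pnpla2 lipase, was 14.3, 13.3 and 13.8 FPKM in WT and 11.5, 11.8 and 12.1 FPKM in fat-1, slightly lower in each (difference -0.21, 95% interval -0.45 to 0.04, adjusted p in limma = 0.605). Mgll, monoacylglycerol lipase, ranged from 5.22 to 13.8 FPKM in WT and from 6.87 to 28.9 FPKM in fat-1 and overlapped (adjusted p in limma = 0.828).

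For droplet formation and structure, 4 of 23 tested genes had an unadjusted p under 0.05, again beside 9.97% of all tested genes, 2 in each direction, and the median was -0.01. The pair higher in fat-1 were Fitm1 and Fitm2, whose proteins sit in the endoplasmic reticulum, bind triglyceride and are needed for droplets to form. Fitm1 measured 16.0, 17.1 and 14.1 FPKM in WT and 50.7, 39.4 and 26.8 FPKM in fat-1 (difference 1.21 ± 0.23, SE; adjusted p in limma = 0.116). Fitm2 measured 7.43, 9.15 and 8.96 FPKM in WT and 14.0, 12 and 13.3 FPKM in fat-1 (difference 0.57, adjusted p in limma = 0.175). Lower values in fat-1 were found for the retinol dehydrogenase Rdh10 (-0.54) and for Cideb of the droplet-associated CIDE family (-0.35), with adjusted p in limma of 0.207 and 0.423. Bscl2, the gene of seipin, which shapes nascent droplets, overlapped between the groups (difference -0.12, adjusted p in limma = 0.895).

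**Figure D4:**
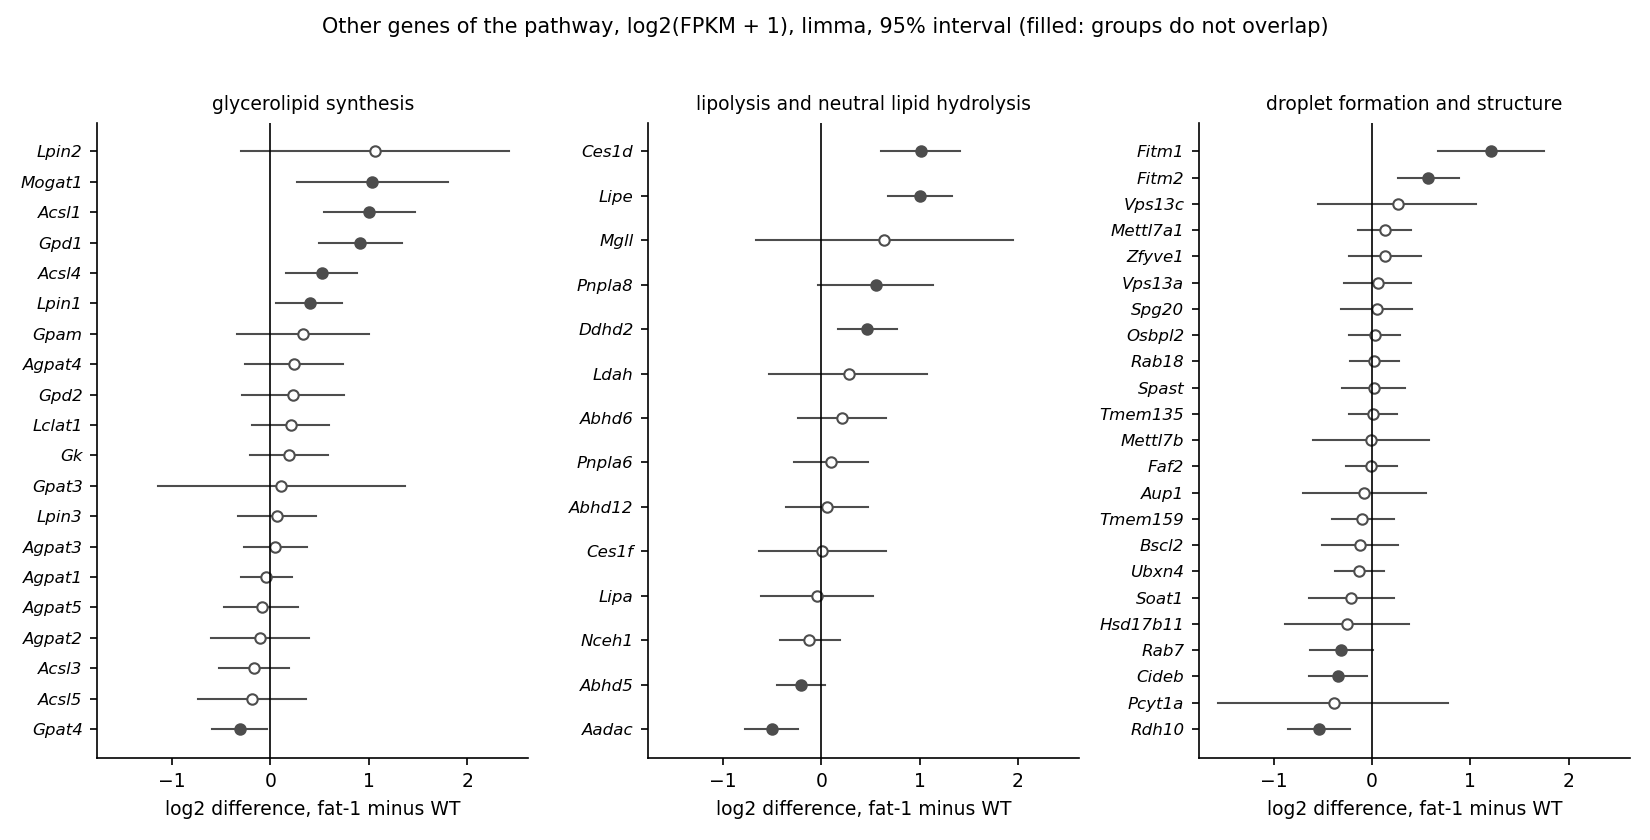
Log2 difference between fat-1 and WT, from FPKM + 1, with 95% intervals (x axis) for the tested genes of glycerolipid synthesis, lipolysis, and droplet formation and structure. Filled points mark genes whose groups did not overlap. Gpd1, Acsl1, Mogat1, Lpin2, Lipe, Ces1d and Fitm1 lie between 0.91 and 1.21, and of these only Lpin2 (1.06) overlapped between the groups. The adjusted p in limma was above 0.05 for each gene plotted.

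Adipocytes also carry droplets, and fat around the kidney can enter a sample. Of 12 adipocyte markers 6 were listed. The others (Plin1, Cidec, Lep, Retn, Adig and Ucp1) were looked for and had no entry, so no values can be given for them. Adipoq was listed at 0 in WT replicates 1 and 2 and fat-1 replicate 1, and at 0.706 FPKM in WT replicate 3, 1.84 FPKM in fat-1 replicate 2 and 0.161 FPKM in fat-1 replicate 3. Cfd was highest in the same WT and fat-1 libraries, at 4.93 FPKM in WT replicate 3 and 4.07 FPKM in fat-1 replicate 2. The summed level of all 6 was 40.9 to 79.7 FPKM in WT and 97.1 to 119 FPKM in fat-1, most of it from Fabp4, which capillary endothelium also expresses. The 5 markers other than Fabp4 summed to 5.75 to 24.9 FPKM in WT and 6.67 to 22.3 FPKM in fat-1. Car3 was the largest of these 5 except in fat-1 replicate 3. It measured 3.4, 8.65 and 16.9 FPKM in WT and 12.9, 12.8 and 2.33 FPKM in fat-1. In fat-1 replicate 1 Car3 was thus high where Adipoq was 0. With WT replicate 3 and fat-1 replicate 2 both left out, an alternative added after the data were seen, the differences were 2.23 for Mogat2, 1.51 for Plin5, 1.44 for Plin2, 1.17 for G0s2 and 0.62 for Dgat2. Of these 5, 0 were called in limma with 2 libraries a group (adjusted p from 0.569 to 0.697).

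**Figure D5:**
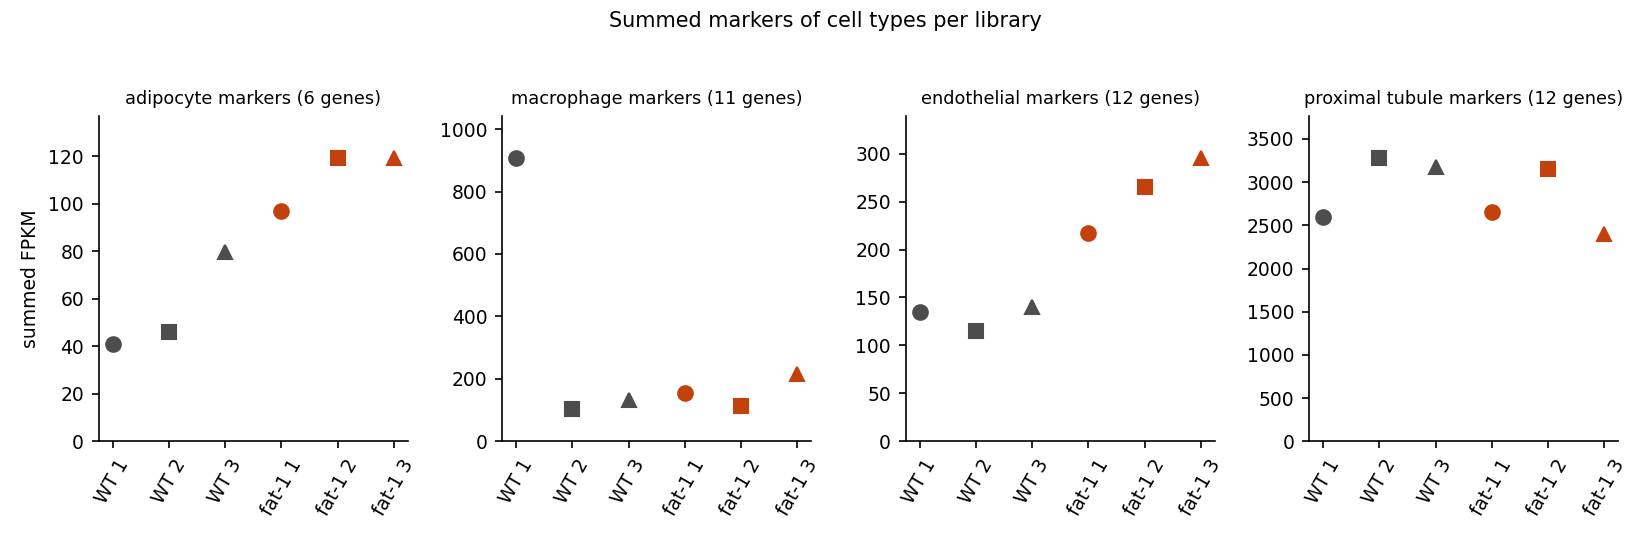
Summed FPKM (y axis, from 0) of marker genes of 4 cell types in each library (x axis; grey WT, orange fat-1). Macrophage markers stand at 906 FPKM in WT replicate 1 against 103 to 215 FPKM elsewhere, and endothelial markers are higher in all fat-1 libraries. Sums of proximal tubule markers overlap between 2404 and 3275 FPKM. Of these 12 genes, 2 were higher in every fat-1 library (8.33% of all tested genes were) and 0 lower in every one (6.86%). Slc7a13 and Gatm overlapped but were lower in fat-1 at an unadjusted p under 0.05 in limma.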

How the data were processed

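The authors deposited 1 table per kidney library with FPKM per transcript, per the file headers; build mm10 and the tools DESeq2 1.20.0, featureCounts 1.5.0-p3 and HISAT2 2.0.5 are named in the submitters' processing notes. Which tool made the FPKM values, and whether reads kept strand, is not stated there. The tables list 27486 protein-coding transcripts, each reaching 0.5 FPKM or more in at least 1 library. Symbols turned into dates on 64 lines were replaced by the symbol in another of the tables where it had one, and FPKM were summed per gene identifier (Python 3.11.15, pandas 2.3.3, matplotlib 3.10.9). Limma 3.58.1 in R 4.3.3 was fitted to log2(FPKM + 1) over 11698 genes that reached 1 FPKM in 3 or more libraries, with an intensity trend, robust variance, no covariates and no rescaling; Benjamini-Hochberg adjusted p under 0.05 was called. The fit was also run on simulated data with noise drawn independently for each gene, and no outcome of that run is used here. FPKM depend on how reads were divided between transcripts. Transcript lengths and exon overlaps came from GENCODE M21 (mm10), with a length for 16 of 17 transcripts. Alternatives were other pseudocounts, filters, scalings and variance settings, the most abundant transcript alone, and leaving out libraries.

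The members, the pathway and marker lists, and the tests were chosen with earlier results of these data known. Named were all members and, of each pathway list, up to 4 tested genes with the smallest p plus Lipe, Mgll, Abhd5, Bscl2 and Lpin1. Gpat4, Lpin2 and the markers Slc7a13 and Gatm were added after the values were seen. Markers were named where they moved with a result, and some others for their level. The labels give the groups no shared replicate numbers; the numbers 1 to 3 used here only name samples in the order they are listed, and pair none. Pairs of libraries held 0 genes with identical values above 0.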

Additional observations from a re-analysis of the deposited data

How the results depend on the processing

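Across 17 alternatives the differences of Mogat2 (2.23 to 2.96), Plin5 (1.40 to 1.97), Plin2 (1.2 to 1.5), G0s2 (1.01 to 1.35), Dgat2 (0.58 to 0.71) and Plin3 (0.06 to 0.31) kept their sign, as did Hilpda (0.33 to 0.86) in the 16 that tested it. Calls were less stable. With 21 genes called at first by limma, the count was 4 with no filter, 42 with a filter at 5 FPKM, 10 with median-of-ratios factors, 11 with upper quartile scaling, 33 when rescaled without mitochondrially encoded genes and 3 with the most abundant transcript only; it ranged from 0 to 25 with 1 library left out, and was 0 (634 at an unadjusted p under 0.05) when WT replicate 3 and fat-1 replicate 2 were left out together. The 0 counts arose without WT replicate 3 (831 at an unadjusted p under 0.05), fat-1 replicate 1 (1005) or fat-1 replicate 3 (1059). Members called numbered 1 in the fit as reported. They numbered 2, Mogat2 and Plin2, with the filter at 5 FPKM (adjusted p of Plin2 in limma 0.0394), with gene sums rescaled to 1 common total (0.0491) and when rescaled without mitochondrially encoded genes (0.0450). In these settings, in the same order, 42 of 7911, 23 of 12867 and 33 of 11700 tested genes were called. Members called numbered 0 with pseudocounts of 0.1 and 0.5, no filter, median-of-ratios factors, upper quartile scaling and the most abundant transcript only. The same held with any 1 library left out, and with that pair of libraries left out. In each of these settings 5 or 6 members had an unadjusted p under 0.05 in limma. Over all tested genes that count ran from 634 of 11404, with that pair left out, to 1583 of 11475, without WT replicate 1. The adjusted p of Mogat2 in limma lay between 0.0311 and 0.569. The cause of these changes was not tested.

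Dgat1 changed sign without WT replicate 3 or fat-1 replicate 2 (range -0.06 to 0.12 with 1 library left out) and with that pair left out (-0.11). Pnpla2 was 0.01 with the most abundant transcript only and ranged from -0.27 to 0.32 with 1 library left out; it was -0.47 with that pair left out. Members with groups that did not overlap numbered 5 or 6 in every alternative, but fewer libraries separate more easily: without WT replicate 1, 20.4% of tested genes were higher in each fat-1 library. In the 11 alternatives of scaling or libraries run on them, 0 genes of each pathway list were called. No paired analysis was possible because the labels give the groups no shared replicate numbers, and those used here only name the samples. With 3 libraries a group and unknown depth, low genes such as Plin4 and Hilpda are the least certain. In WT, Plin5 (mean 1.82 FPKM) was about as low as Hilpda (1.73 FPKM), and Mogat2 was at 2.40 FPKM. The 4.0-fold ratio of Plin5 and the 7.67-fold ratio of Mogat2 rest on these low WT values.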
